A study of Sordaria macrospora with 14 samples.

Results

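Deletion of the locus SMAC_03952 in Sordaria macrospora was examined in mycelium, by setting the libraries of ΔSMAC_03952 mycelium (n = 2) against those of wild-type mycelium (n = 2). These 4 libraries were taken by their labels from the 14 of the series, and all 9869 gene models of the deposited count table were considered, of which 9499 had enough counts to be tested. Sordaria macrospora is a self-fertile filamentous fungus that has no asexual spores and carries its life cycle through the sexual phase: hyphae coil into ascogonia, these become protoperithecia, and protoperithecia mature into perithecia, the flask-shaped fruiting bodies that hold asci and ascospores. It has long served as a model for the genetics of fruiting body formation, since mutants arrested at a defined stage can be grown as mycelium. The labels describe the mycelium as sexual.

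ΔSMAC_03952 and wild-type mycelium were grown for 6 days at 25 °C in liquid corn meal medium, and RNA was taken from the whole mycelium. Beside them, perithecia of ΔSMAC_03952 (n = 2) and of the wild type (n = 2), scraped from solid medium, and mycelium of the deletion strains Δasm2 and Δspt3 (n = 2 each) are used below, as are perithecia of Δasm2 (n = 2). All of these were likewise from day 6 at 25 °C. The labels name SMAC_03952 by its locus tag only. The deletion construct, the number of independent deletion strains and any complemented strain are unknown from the sources used here. No source used here pairs the locus tags with gene products, so genes are described by their levels, their transcript length, their neighbours and their behaviour in other libraries, and not by function.

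The total count per library was 7935359 and 18483046 in ΔSMAC_03952 mycelium, against 24029990 and 19792141 in wild-type mycelium. Across genes, Spearman's correlation between replicates was 0.955 in ΔSMAC_03952 mycelium and 0.982 in wild-type mycelium. Levels are given as CPM (counts scaled to a common library size), which compare a gene between libraries and not 1 gene with another. A gene is called higher or lower where edgeR's quasi-likelihood test over all 9499 genes gave a Benjamini-Hochberg adjusted p under 0.05. RNA came from whole mycelium, so fewer cells of a type and less RNA per cell cannot be told apart in any result.

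The deleted locus was read first. SMAC_03952 had 21.3 and 25.1 CPM in ΔSMAC_03952 mycelium, against 239.6 and 237.4 CPM in wild-type mycelium. Both deletion libraries lay far below both wild-type libraries, and the means were 23.2 ± 2.71 CPM in ΔSMAC_03952 mycelium and 238.5 ± 1.53 CPM in wild-type mycelium (SD, n = 2 each). The log2 fold change was -3.36 with SE 0.24 (adjusted p = 5.02e-05 in edgeR). The deletion libraries still held 165 and 433 counts on this gene model, 9.73% of the wild-type level. Counts per gene model do not show which part of the transcript these reads cover.

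No tested gene beside the deleted locus passed the test. SMAC_03953, on one side, had 25.8 and 30.2 CPM in ΔSMAC_03952 mycelium, against 22.8 and 22.6 CPM in wild-type mycelium (log2 fold change 0.30 with SE 0.22, adjusted p = 0.337 in edgeR). SMAC_03954, the gene after it, had a log2 fold change of 0.03 with SE 0.23 (adjusted p = 0.937 in edgeR). On the other side SMAC_03951 held 2 and 2 counts in ΔSMAC_03952 mycelium, against 0 and 2 counts in wild-type mycelium, too few to test. SMAC_03950, next to it, had a log2 fold change of 0.02 with SE 0.22 (adjusted p = 0.951 in edgeR). Among the 6 genes on either side, none was called with the counts as deposited. SMAC_03949 was called higher (log2 fold change 0.79, edgeR adjusted p = 0.042) only with the length trends described below removed.

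With the deleted gene included, 1023 genes differed between ΔSMAC_03952 and wild-type mycelium, 10.8% of those tested. Of these, 392 were higher in ΔSMAC_03952 mycelium (4.13% of genes tested) and 631 were lower (6.64%). The decreases were the deeper changes. At least 4-fold decreases numbered 155 and at least 4-fold increases 43, and at least 16-fold decreases numbered 29 against 5 such increases. The median log2 fold change was -1.44 over the lower genes and 1.13 over the higher genes. In all 1023, the 2 deletion libraries lay on one side of the 2 wild-type libraries. Passing a test on these same libraries largely sets this in advance, so it is no further evidence. The authors' deposited table gives 1803 genes an adjusted p under 0.05 in this comparison, 733 higher and 1070 lower, and 1020 of the 1023 are among them in the same direction. Those adjusted p-values are written to 2 decimals, so the thresholds are not quite alike. They come from the same libraries, so the overlap is no independent evidence. The number called depended heavily on single libraries: leaving out wild-type replicate 1 gave 92 (6 higher, 86 lower) and wild-type replicate 2 gave 479, while leaving out replicate 1 of the deletion strain gave 548 and its replicate 2 gave 668. It was 242 (37 higher, 205 lower) when only the 4 mycelium libraries were fitted and 1805 (780 higher, 1025 lower) without the Δspt3 libraries, with lower genes the larger part each time.

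**Figure D1:**
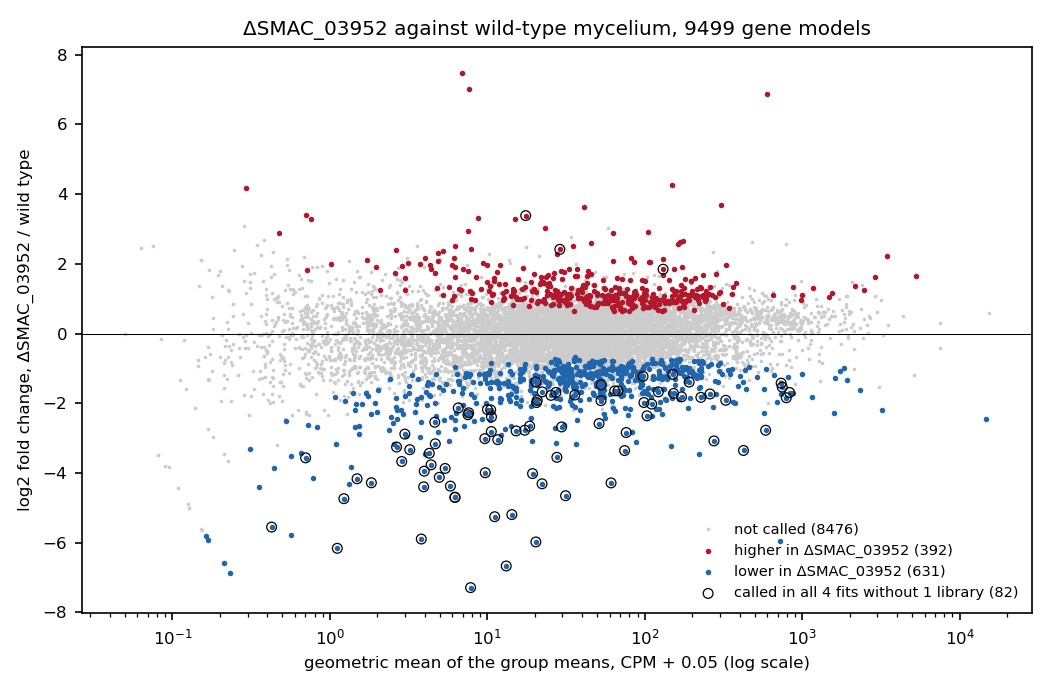
Log2 fold change of each gene model in ΔSMAC_03952 over wild-type mycelium (y axis) against its level (x axis, geometric mean of the group means in CPM + 0.05, log scale); red points are the 392 higher genes, blue points the 631 lower ones, grey points genes not called, and open circles the 82 genes called in every fit that left out 1 of the 4 libraries. Nearly all circled genes lie below 0.

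A set of 82 genes was called in the same direction in all 4 fits that each left out 1 of the mycelium libraries, and 79 of these were lower in ΔSMAC_03952 mycelium (0.832% of genes tested). Their median log2 fold change was -2.79, and 54 of the 79 were at least 4-fold lower. All 82 were also called with length trends removed. When the trends were removed within each of the 4 fits, 140 genes were lower and 10 higher in all 4, among them 75 of the 79 and 2 of the 3.

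The largest fitted decrease was that of SMAC_07759. It had 0.387 and 0.754 CPM in ΔSMAC_03952 mycelium (3 and 13 counts), against 103.5 and 93.9 CPM in wild-type mycelium. The groups were 156-fold apart (log2 fold change -7.29 with SE 0.96, adjusted p = 0.0019 in edgeR), and the gene was called in each of the 4 fits without 1 library. SMAC_08033 had 0.774 and 1.68 CPM in ΔSMAC_03952 mycelium, against 167.2 and 104.9 CPM in wild-type mycelium. It fell 102-fold (log2 fold change -6.67 with SE 0.77, adjusted p = 0.00114 in edgeR), also in each of the 4 fits. Both wild-type libraries held 7159 genes at no less than 10 CPM, of which 3 stood under 1 CPM in both deletion libraries. These were SMAC_07759 itself, SMAC_02704 and SMAC_12949, the last 2 named here after their values were seen. SMAC_02704 had 0.774 and 0.87 CPM in ΔSMAC_03952 mycelium, against 20.6 and 14.9 CPM in wild-type mycelium (log2 fold change -4.40 with SE 0.40, adjusted p = 3.02e-04 in edgeR). SMAC_12949 had 0.387 and 0.522 CPM in ΔSMAC_03952 mycelium, against 36.0 and 21.3 CPM in wild-type mycelium (log2 fold change -5.89 with SE 0.56, adjusted p = 3.02e-04 in edgeR).

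A few further lower genes, chosen after their values were seen, show the range of levels affected. SMAC_07687, with the smallest p after the deleted gene, had 10.8 and 12.5 CPM in ΔSMAC_03952 mycelium, against 69.7 and 80.3 CPM in wild-type mycelium (log2 fold change -2.68 with SE 0.22, adjusted p = 1e-04 in edgeR). SMAC_03185 had 1.03 and 2.38 CPM in ΔSMAC_03952 mycelium, against 73.3 and 67.9 CPM in wild-type mycelium (log2 fold change -5.25 with SE 0.52, adjusted p = 3.02e-04 in edgeR). SMAC_07669 had 7.22 and 2.61 CPM in ΔSMAC_03952 mycelium, against 73.6 and 77.4 CPM in wild-type mycelium (log2 fold change -4.02 with SE 0.43, adjusted p = 5.71e-04 in edgeR). These 3 genes had close replicates in the wild type and were called in every fit without 1 library. SMAC_00508 was of another kind, with 34.6 and 148.5 CPM in ΔSMAC_03952 mycelium, against 6379 and 4905 CPM in wild-type mycelium. Its deletion libraries differed from each other more than 4-fold, and its log2 fold change was -5.94 with SE 1.12 (adjusted p = 0.00984 in edgeR). Once wild-type replicate 1 was left out the log2 fold change was -5.71, and the call ended by a small margin (edgeR adjusted p = 0.0549).

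The largest increases were those of a neighbouring pair of genes, SMAC_09685 and SMAC_09686, which were also the only 2 of 328 genes under 1 CPM in both wild-type mycelium libraries to reach 10 CPM in both deletion libraries. SMAC_09685 had 163.2 and 16.5 CPM in ΔSMAC_03952 mycelium, against 0.647 and 0.313 CPM in wild-type mycelium (log2 fold change 7.48 with SE 1.60, adjusted p = 0.0188 in edgeR). SMAC_09686 had 140.5 and 25.1 CPM in ΔSMAC_03952 mycelium, against 0.324 and 0.991 CPM in wild-type mycelium (128-fold, SE of the log2 value 1.59, edgeR adjusted p = 0.0228). For both genes replicate 1 of the deletion strain stood well above replicate 2. Both calls ended without ΔSMAC_03952 replicate 1 (edgeR adjusted p = 0.0542 for SMAC_09685 and 0.058 for SMAC_09686) and without either wild-type replicate (0.0768 to 0.213).

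The same shape was seen in another neighbouring pair, SMAC_00532 and SMAC_00533, named after their values were seen. SMAC_00533 had 9542 and 3411 CPM in ΔSMAC_03952 mycelium, against 56.9 and 54.0 CPM in wild-type mycelium (log2 fold change 6.87 with SE 1.94, adjusted p = 0.0432 in edgeR). SMAC_00532 had 961 and 346 CPM in ΔSMAC_03952 mycelium, against 39.5 and 28.6 CPM in wild-type mycelium (log2 fold change 4.26 with SE 1.22, adjusted p = 0.0447 in edgeR). Both genes were at least 8-fold above the wild type in each deletion library, yet their calls held in only 1 of the 4 fits without 1 library, that without ΔSMAC_03952 replicate 2. SMAC_00531, the gene before them, went the other way, with 0.387 and 1.51 CPM in ΔSMAC_03952 mycelium against 6.71 and 5.94 CPM in wild-type mycelium (log2 fold change -2.57 with SE 0.72, adjusted p = 0.0447 in edgeR, called in none of the 4 fits without 1 library). The fifth gene with an increase of at least 16-fold, SMAC_08013, stayed near the detection limit, at 0.516 and 1.28 CPM in ΔSMAC_03952 mycelium, against 0.0809 and 0 CPM in wild-type mycelium.

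These large increases also varied between replicates of another strain. In Δasm2 mycelium, SMAC_00533 had 6051 CPM in replicate 1 and 81.5 CPM in replicate 2, and SMAC_09685 had 37.1 CPM in replicate 1 and 0.33 CPM in replicate 2. In Δspt3 mycelium SMAC_00533 had 124.1 CPM in replicate 1 and 0.673 CPM in replicate 2. SMAC_09685 was listed there at 0 counts in both libraries. ΔSMAC_03952 did not differ from Δasm2 mycelium past the threshold for SMAC_00533 (log2 fold change 1.08 with SE 1.52, adjusted p = 0.709 in edgeR) or SMAC_09685 (log2 fold change 2.23 with SE 1.20, adjusted p = 0.327 in edgeR). The share of these increases that goes with the deletion rather than with the individual culture was not tested.

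With counts as deposited, 3 genes were higher in ΔSMAC_03952 mycelium in all 4 fits without 1 library (0.0316% of genes tested). SMAC_02475, with a short transcript of 351 bases, had 58.6 and 54.3 CPM in ΔSMAC_03952 mycelium, against 5.78 and 5.005 CPM in wild-type mycelium (log2 fold change 3.38 with SE 0.50, adjusted p = 0.0032 in edgeR). SMAC_12924, of 291 bases, had 82.3 and 50.9 CPM in ΔSMAC_03952 mycelium, against 13.2 and 11.7 CPM in wild-type mycelium (log2 fold change 2.41 with SE 0.32, adjusted p = 0.00207 in edgeR). SMAC_00180, of 2172 bases, had 277.6 and 217.7 CPM in ΔSMAC_03952 mycelium, against 52.6 and 85.4 CPM in wild-type mycelium (log2 fold change 1.84 with SE 0.27, adjusted p = 0.00303 in edgeR). In each of the 3 the lower deletion library was more than 2-fold above the higher wild-type library. In Δasm2 mycelium SMAC_02475 had 36.6 and 9.34 CPM, SMAC_12924 had 83.2 and 57.9 CPM, and SMAC_00180 had 224.4 and 183.8 CPM. None of the 3 differed past the threshold between ΔSMAC_03952 and Δasm2 mycelium (edgeR adjusted p = 0.161, 0.892 and 0.566). In Δspt3 mycelium they had 0.835 and 1.12, 0 and 0, and 84.1 and 60.0 CPM, in the same order.

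**Figure D2:**
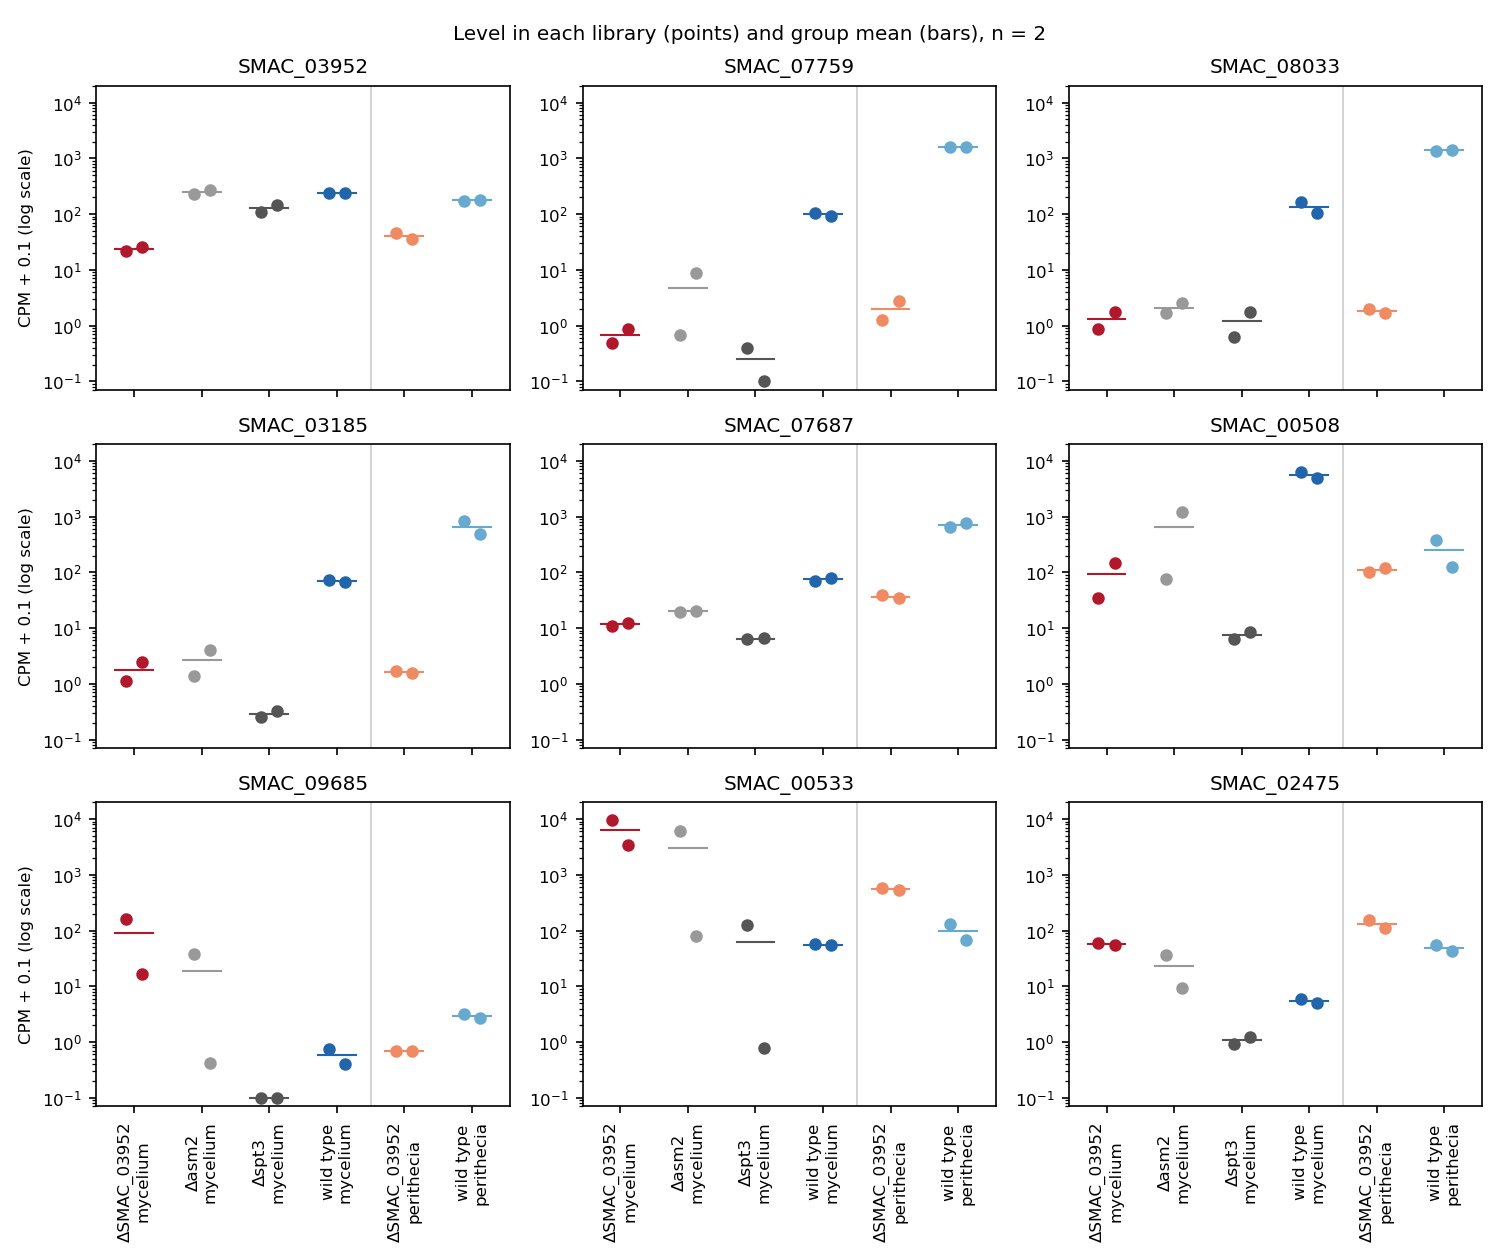
CPM + 0.1 (log scale) of 9 genes in each library, with 2 points and a bar at the mean for each group; left of the grey line are ΔSMAC_03952, Δasm2, Δspt3 and wild-type mycelium, right of it ΔSMAC_03952 and wild-type perithecia. SMAC_03952, SMAC_07759, SMAC_08033, SMAC_03185, SMAC_07687 and SMAC_00508 are low in ΔSMAC_03952 mycelium relative to wild-type mycelium, while SMAC_09685, SMAC_00533 and SMAC_02475 are high. Replicates of SMAC_09685 lie far apart in ΔSMAC_03952 and Δasm2 mycelium, and those of SMAC_00533 in Δasm2 and Δspt3 mycelium.

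The fold changes ran with transcript length. Across genes, Spearman's correlation between the log2 fold change and the length of the gene model was -0.35. When genes were put in 10 classes by length, the median log2 fold change was 0.28 in the shortest class, of 120 to 790 bases. It was 0.41 in the class of 791 to 1106 bases. From there it fell steadily with length, to -0.57 among genes of 3870 to 19247 bases. Calls followed: the longest class held 116 lower and 3 higher genes, and the class of 1367 to 1608 bases held 34 lower and 71 higher genes. The shortest class held 37 lower and 37 higher genes. These counts moved with single libraries: leaving out 1 of the 4 libraries left 7 to 65 lower genes in the longest class, 7 of them without wild-type replicate 1 and 27 without ΔSMAC_03952 replicate 2. The 246 higher genes in the shortest 4 classes numbered 4 without wild-type replicate 1, 58 without wild-type replicate 2 and 113 without ΔSMAC_03952 replicate 2. The number of genes called in each direction, over all lengths, also fell in each of these fits. The 631 lower genes had a median length of 2392 bases, the 392 higher genes 1427 bases, and all genes tested 1853 bases.

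The trend was a property of single libraries as well as of the groups. Relative to the mean of all 14 libraries, genes of the longest class lay lower by a median of -0.29 and -0.66 (log2) in ΔSMAC_03952 mycelium replicates 1 and 2, against 0.18 and 0.01 in wild-type mycelium replicates 1 and 2. Both deletion libraries thus fell below both wild-type libraries. Replicates of 1 group differed with length too: the correlation was 0.39 for ΔSMAC_03952 replicate 1 minus replicate 2 and 0.24 for wild-type replicate 1 minus replicate 2. Between single deletion and wild-type libraries it ranged from -0.09 to -0.45. Against Δasm2 mycelium, in place of the wild type, the trend was -0.34. In perithecia, with other libraries, it was 0.12 for ΔSMAC_03952 against the wild type. The sources used here give neither fragment sizes nor RNA integrity, and their part in the trend was not tested.

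To see which calls stand apart from length, the length trend of each library was removed and the test repeated. It then called 1097 genes (11.5%), 398 higher in ΔSMAC_03952 mycelium (4.19%) and 699 lower (7.36%). Of the 1023 genes, 813 were called again in the same direction (279 higher, 534 lower), 210 were not called, 284 were new, and none changed direction. The longest class then held 54 lower and 41 higher genes. The class of 120 to 790 bases held 72 lower and 24 higher genes, against 37 and 37 with counts as deposited. Its median log2 fold change moved from 0.28 to -0.13, so the excess of lower genes in this class came with the removal of the trends. The deepest decreases were called again. With the trends removed SMAC_07759 had a log2 fold change of -7.14 (edgeR adjusted p = 0.00131), against -7.29 with counts as deposited. SMAC_08033 had one of -7.11 (edgeR adjusted p = 7.06e-04), against -6.67. SMAC_03952 itself, a long gene model of 4048 bases, had -2.91 (edgeR adjusted p = 1.06e-04), against -3.36.

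**Figure D3:**
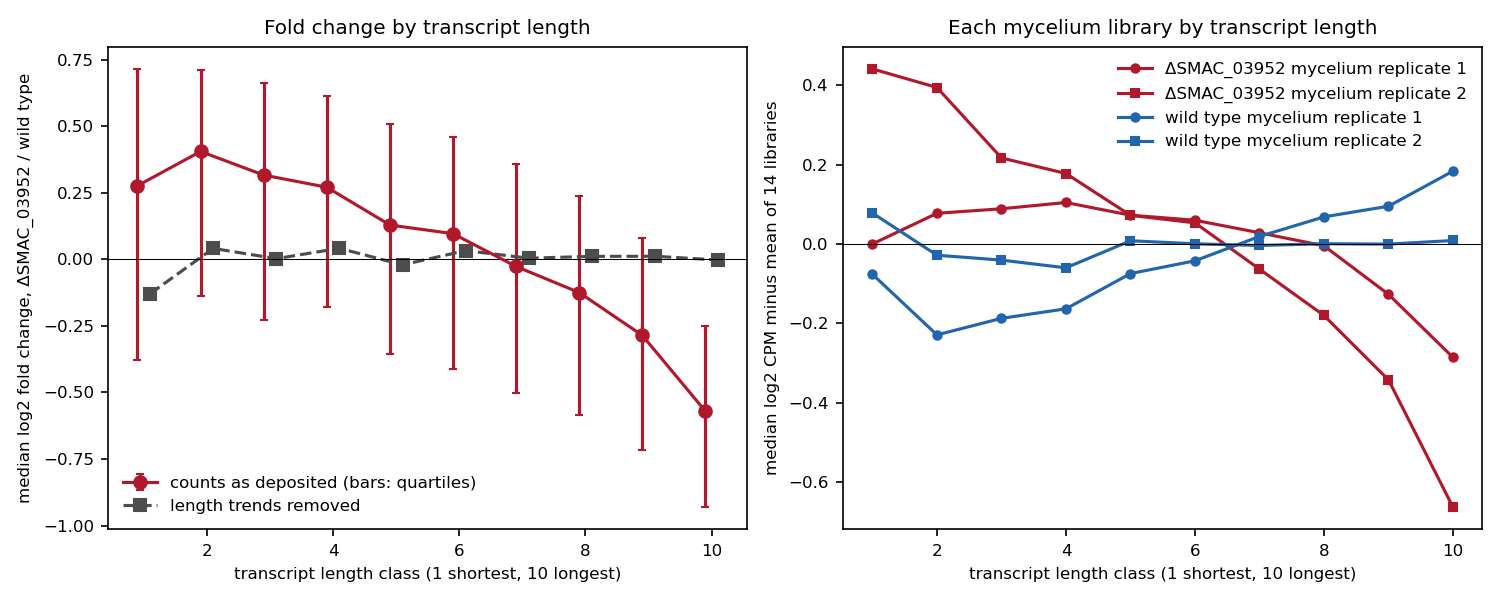
Left, median log2 fold change of ΔSMAC_03952 over wild-type mycelium in 10 classes of transcript length (1 shortest, 10 longest), with quartiles, for counts as deposited and with length trends removed. Right, median log2 CPM of each length class in the 4 mycelium libraries relative to the mean of 14 libraries; ΔSMAC_03952 replicate 2 departs furthest, and the 2 deletion libraries lie below the 2 wild-type libraries in the longest class.

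Genes with high counts in wild-type mycelium were more often lower. In the top class of wild-type level, of 123 genes, 17.9% were lower and 5.69% higher in ΔSMAC_03952 mycelium, and in the class just under it, of 1990 genes from 100 CPM up, 10.5% were lower and 3.62% higher. Among 5266 genes at 10 to 100 CPM, 6.15% were lower and 4.50% higher, and among 1725 genes at 1 to 10 CPM, 4.17% were lower and 3.83% higher. Higher counts give more power, and the classes use the wild-type values of the comparison itself, so these shares are a description only.

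Some changed genes lay side by side. In the gene order of the RefSeq annotation, 119 of 617 placed lower genes (19.3%) had a direct neighbour that was also lower, against 11.7% of all 9173 placed genes. For higher genes this was 58 of 367 (15.8%), against 7.18% of all placed genes. The longest runs held 4 genes each, and there were 3 of them. In the run SMAC_08949, SMAC_08948, SMAC_08947 and SMAC_08946 all were higher in ΔSMAC_03952 mycelium. SMAC_08947 changed most, with 66.0 and 99.2 CPM in ΔSMAC_03952 mycelium, against 8.41 and 20.9 CPM in wild-type mycelium (log2 fold change 2.50 with SE 0.45, adjusted p = 0.00852 in edgeR). The other 3 genes of this run had log2 fold changes from 1.17 to 1.28, with adjusted p from 0.0292 to 0.0479.

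A run of 4 lower genes comprised SMAC_00809, SMAC_00811, SMAC_00812 and SMAC_00813. SMAC_00809 had 28.9 and 55.5 CPM in ΔSMAC_03952 mycelium, against 136.9 and 111.1 CPM in wild-type mycelium (log2 fold change -1.55 with SE 0.31, adjusted p = 0.0128 in edgeR). SMAC_00812, the longest of these transcripts at 5503 bases, lost its call with length trends removed (edgeR adjusted p = 0.0724). The third run held SMAC_08539, SMAC_08540, SMAC_08541 and SMAC_12797, with log2 fold changes of -1.26, -1.95, -1.19 and -1.20. SMAC_08540 had 60.8 and 66.3 CPM in ΔSMAC_03952 mycelium, against 296.5 and 195.4 CPM in wild-type mycelium (SE 0.32, edgeR adjusted p = 0.00481). None of the 12 genes in these runs was called in all 4 fits without 1 library, SMAC_08947 and SMAC_08540 being called in 3.

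**Figure D4:**
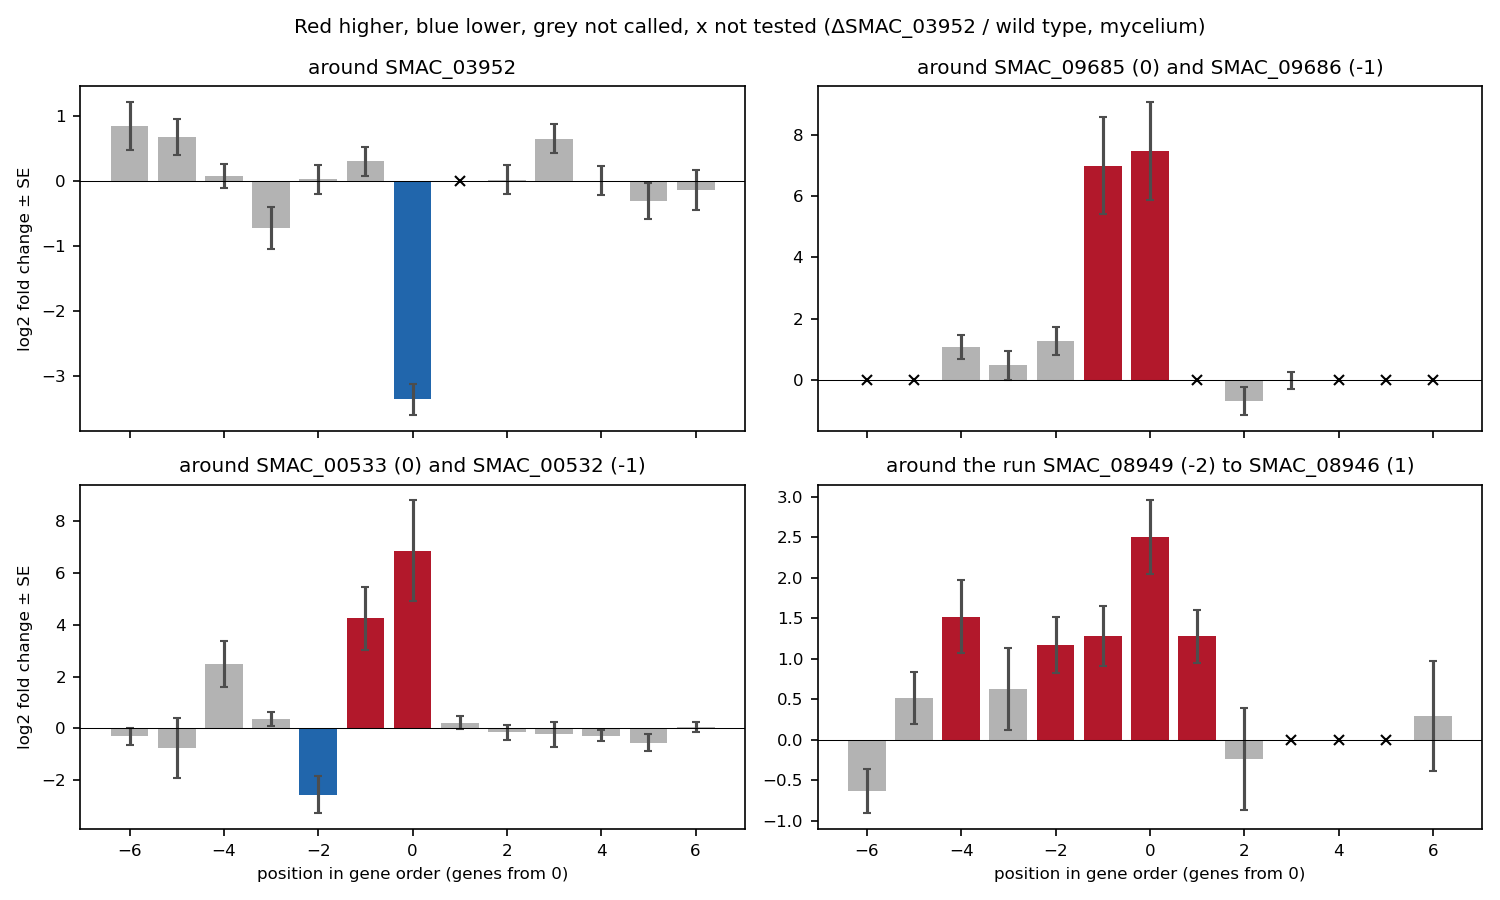
Log2 fold change ± SE of ΔSMAC_03952 over wild-type mycelium by position in the gene order, for 6 genes on either side of SMAC_03952, SMAC_09685, SMAC_00533 and SMAC_08947; crosses mark genes that were not tested. The deleted gene and the pair SMAC_09685 and SMAC_09686 stand out sharply from their neighbours, whereas SMAC_08947 lies in a run of 4 higher genes. Around SMAC_00533 the neighbours vary more: SMAC_00532 is at 4.26 ± 1.22, SMAC_00529 at 2.49 ± 0.89 (not called) and SMAC_00531 at -2.57 ± 0.72.

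The genes changed in mycelium were then followed in perithecia, where ΔSMAC_03952 and wild-type libraries are others than those of mycelium, though all libraries share the estimate of spread. Of the 631 genes lower in mycelium, 192 (30.4%) were also lower in ΔSMAC_03952 perithecia than in wild-type perithecia and 25 (3.96%) were higher. The perithecial comparison as a whole called 11.2% of genes lower and 6.24% higher. Of the 392 genes higher in mycelium, 45 (11.5%) were also higher in ΔSMAC_03952 perithecia and 25 (6.38%) were lower. Without wild-type replicate 1 of mycelium, 55 genes were lower in both tissues and 1 was higher in both. That fit also called far fewer genes in mycelium, so these counts do not show how the shares changed. The share that stayed with the direction grew with the size of the decrease. Of genes under 2-fold lower in mycelium 15.9% were lower in perithecia, of those 2- to 4-fold lower 22.4%, of those 4- to 16-fold lower 51.6%, and of those at least 16-fold lower 26 of 29 (89.7%). The last class had a median log2 fold change of -6.38 in perithecia, and with length trends removed 31 of 34 such genes were lower there, against 12.3% of all genes. Of the 79 lower genes called in all 4 fits without 1 library, 52 (65.8%) were lower in ΔSMAC_03952 perithecia and 1 was higher. That gene was SMAC_06138, with a log2 fold change of -1.39 in mycelium and 1.35 in perithecia (edgeR adjusted p = 0.00173 in perithecia).

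Several of the deep decreases had larger fitted decreases in perithecia. SMAC_07759 had 1.16 and 2.68 CPM in ΔSMAC_03952 perithecia, against 1624 and 1593 CPM in wild-type perithecia (log2 fold change -9.65 with SE 0.98, adjusted p = 3.14e-05 in edgeR). SMAC_03185 had 1.59 and 1.49 CPM in ΔSMAC_03952 perithecia, against 837.8 and 488.8 CPM in wild-type perithecia (log2 fold change -8.75 with SE 0.59, adjusted p = 2e-06 in edgeR). SMAC_02704 had 2.89 and 2.58 CPM in ΔSMAC_03952 perithecia, against 265.1 and 310.1 CPM in wild-type perithecia (log2 fold change -6.72 with SE 0.40, adjusted p = 1.56e-06 in edgeR). For all 3 the level in wild-type perithecia was above that in wild-type mycelium, whereas the deletion strain stayed near the bottom in both tissues. The mycelial and perithecial effects differed for SMAC_03185 (log2 difference 3.49, edgeR adjusted p = 0.0113) and SMAC_02704 (2.32, edgeR adjusted p = 0.0233), and for SMAC_07759 the test of the difference gave 2.36 (edgeR adjusted p = 0.229). SMAC_12949 was lower in both tissues too, with 1.01 and 1.39 CPM in ΔSMAC_03952 perithecia, against 12.8 and 19.0 CPM in wild-type perithecia (log2 fold change -3.69 with SE 0.51, adjusted p = 3.57e-04 in edgeR).

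Other changes differed between the tissues. Mycelium was grown in liquid medium and perithecia were scraped from solid medium, so tissue and culture medium cannot be told apart here. The test of the difference between the tissues called 1342 genes in all (14.1%; 8.29% with the mycelial effect above the perithecial one and 5.84% below it), among them 242 of the 631 lower genes (38.4%) and 120 of the 392 higher genes (30.6%). For 189 of these 242 the effect in mycelium lay below that in perithecia, and for 119 of the 120 it lay above. This test uses the same mycelium libraries that chose the genes, so these shares and directions are partly set by that choice and are a description only. SMAC_00809 was lower in mycelium and higher in perithecia, with 122.5 and 151.6 CPM in ΔSMAC_03952 perithecia, against 56.8 and 53.0 CPM in wild-type perithecia (log2 fold change 1.32 with SE 0.31, adjusted p = 0.0105 in edgeR). SMAC_00508 had 100.4 and 117.5 CPM in ΔSMAC_03952 perithecia, against 382.6 and 126.3 CPM in wild-type perithecia, a difference that did not pass the test (log2 fold change -1.22 with SE 0.92, adjusted p = 0.407 in edgeR). Of the 3 genes higher in every mycelium fit, SMAC_00180 was also higher in perithecia, with 322.5 and 312.7 CPM in ΔSMAC_03952 perithecia, against 52.0 and 53.9 CPM in wild-type perithecia (log2 fold change 2.58 with SE 0.28, adjusted p = 5.12e-05 in edgeR). SMAC_02475 was higher there as well (log2 fold change 1.45 with SE 0.46, adjusted p = 0.0473 in edgeR), and SMAC_12924 did not pass the test (0.49, SE 0.31, edgeR adjusted p = 0.314).

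**Figure D5:**
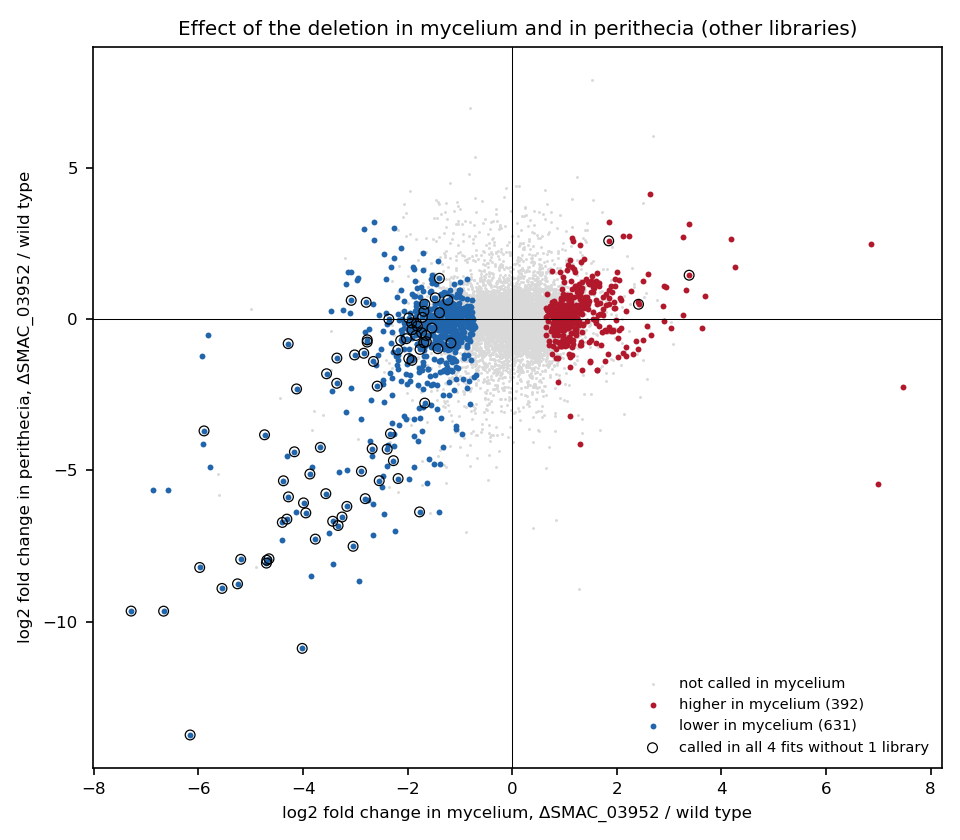
Log2 fold change of each gene in ΔSMAC_03952 over the wild type in mycelium (x axis) and in perithecia (y axis), which use different libraries; blue and red points are the 631 lower and 392 higher genes of mycelium, and circles the genes called in every fit without 1 library. The genes with the deepest decreases in mycelium lie at the lower left, below 0 on both axes, while most moderate changes spread around 0 in perithecia.

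How the changed genes differ between fruiting bodies and mycelium was read from Δasm2 libraries, which are on neither side of the mycelium comparison but, like all 14 libraries, enter the estimate of spread behind its calls. A comparison of perithecia with mycelium cannot tell tissue from culture medium. Of all genes tested, 12.9% were higher and 13.3% lower in Δasm2 perithecia than in Δasm2 mycelium. Of the 631 genes lower in ΔSMAC_03952 mycelium, 34.1% were higher in Δasm2 perithecia and 16.2% lower. Of the 392 genes higher in ΔSMAC_03952 mycelium, 6.89% were higher in Δasm2 perithecia and 30.6% lower. The 215 genes lower in ΔSMAC_03952 mycelium and higher in Δasm2 perithecia numbered 48 without wild-type replicate 1 and 134 without ΔSMAC_03952 replicate 1. The 120 genes higher in ΔSMAC_03952 mycelium and lower in Δasm2 perithecia numbered 1 without wild-type replicate 1 and 59 to 77 without another of the 4 libraries. These fits also called fewer genes in ΔSMAC_03952 mycelium, so the counts do not show how the shares changed. Of the 29 genes lower by at least 16-fold, 23 (79.3%) were higher in Δasm2 perithecia and 0 were lower there. With length trends removed 34.2% of the 699 lower genes and 9.30% of the 398 higher genes were higher in Δasm2 perithecia, against 13.8% of all genes. The median log2 fold change in ΔSMAC_03952 mycelium was -0.40 over the 1226 genes higher in Δasm2 perithecia, 0.35 over the 1263 genes lower there, and 0.03 over all genes tested.

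Levels in the other deletion strains were set beside those of ΔSMAC_03952 for some of the genes with deep decreases, those named above. SMAC_08033, with 0.774 and 1.68 CPM in ΔSMAC_03952 mycelium, had 1.55 and 2.42 CPM in Δasm2 mycelium and 0.532 and 1.64 CPM in Δspt3 mycelium. SMAC_12949 had 0.387 and 0.522 CPM in ΔSMAC_03952 mycelium, against 4.06 and 10.0 CPM in Δasm2 mycelium, and was lower in ΔSMAC_03952 than in Δasm2 mycelium (log2 fold change -3.84 with SE 0.56, adjusted p = 0.00352 in edgeR). SMAC_02704 and SMAC_07669 were likewise lower in ΔSMAC_03952 than in Δasm2 mycelium (log2 fold changes -1.90 and -1.83, edgeR adjusted p = 0.0357 and 0.0302). SMAC_03185 had 1.03 and 2.38 CPM in ΔSMAC_03952 mycelium, against 1.29 and 3.96 CPM in Δasm2 mycelium, which did not pass the test (log2 fold change -0.42 with SE 0.55, adjusted p = 0.684 in edgeR). SMAC_07759 had 0.387 and 0.754 CPM in ΔSMAC_03952 mycelium, against 0.58 and 8.68 CPM in Δasm2 mycelium, a difference that did not pass the test (log2 fold change -2.78 with SE 0.98, adjusted p = 0.149 in edgeR). In Δspt3 mycelium these genes were at or near the bottom as well. SMAC_12949 had 0.456 and 0.598 CPM there, SMAC_07669 had 0.0759 and 0.299 CPM, and SMAC_03185 had 0.152 and 0.224 CPM. SMAC_07759 had 0.304 and 0 CPM in Δspt3 mycelium, and SMAC_02704 was listed at 0 counts in both libraries. Genes lower in ΔSMAC_03952 than in Δasm2 mycelium made up 2.60% of all genes tested, and genes higher 0.863%. The genes named here were chosen on their low ΔSMAC_03952 mycelium libraries, which this test uses too. Their calls against Δasm2 are thus partly set by that choice and are a description only.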

How the data were processed

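Raw read counts per transcript model of 14 libraries were deposited, per the file headers, and the libraries were prepared with Illumina protocols per the labels. The sources used here do not name the aligner, counting program, genome build or strand setting. The deposited table also gives the transcript length, and the authors' DESeq2 results: a mean normalized signal, log2 fold changes and adjusted p-values written to 2 decimals, per the file headers. Of 10014 rows, 145 second transcripts held 0 counts and were left out. Counts were fitted in R 4.3.3 with edgeR 4.0.16 (filterByExpr, TMM, glmQLFit, glmQLFTest) over all 14 libraries and 7 groups (common biological coefficient of variation 0.237, 7 residual and 5.5 prior degrees of freedom). The filter left out 370 of 9869 models.

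Length trends were removed by an offset, a loess curve (span 0.5) of each library's log2 deviation from the mean of all libraries on log2 length, fitted after the counts were scaled. Neighbours were read from the gene order of RefSeq assembly ASM3387043v1, in which 9531 models matched an old locus tag; no positions were used. Lists by product word and protein motif had been planned and were not run, because no products or proteins were at hand. Genes are named by rule: the 2 largest fold changes per direction with at least 10 CPM in the higher group and replicates that do not overlap, the deleted gene, 2 neighbours on each side, and the longest runs; every other gene named was chosen after its values were seen. Members, lists and tests were chosen with earlier results of these data known. Per the series' design text, replicates were biological and independent. Their counts varied well beyond sampling noise, with a chi-square per gene of 105.9 within ΔSMAC_03952 mycelium and 111.4 within wild-type mycelium. In data made with known changes, 90% of 100 genes changed 4-fold and 21% of 100 changed 2-fold were recovered for this comparison (9498 genes). The changed genes were drawn from those with a mean of at least 10 CPM. All groups otherwise shared the same means and no length trend was added, so these shares need not hold for the real libraries. DESeq2 1.42.0 served as an alternative.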

Additional observations from a re-analysis of the deposited data

Results flagged for a closer look

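The effect of the deletion differed between mycelium and perithecia in 1342 genes (14.1% of those tested, edgeR adjusted p under 0.05). Tissue and culture medium, liquid or solid, cannot be told apart in this difference. The values that follow are the log2 effect in mycelium minus that in perithecia for genes named above, most of which were chosen on the mycelium libraries that this test uses too. SMAC_03952 itself differed by -1.24 (edgeR adjusted p = 0.0248), with log2 fold changes of -3.36 in mycelium and -2.12 in perithecia. For the deleted gene this compares the reads left on its gene model. ΔSMAC_03952 perithecia still held 45.7 and 35.2 CPM, against 171.4 and 180.2 CPM in wild-type perithecia.

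The mycelial effect lay above the perithecial one by 9.73 for SMAC_09685 and by 12.45 for SMAC_09686 (edgeR adjusted p = 0.0199 and 0.011). Neither gene was called in perithecia (edgeR adjusted p = 0.425 for SMAC_09685 and 0.0946 for SMAC_09686). SMAC_09686 held 3 counts over the ΔSMAC_03952 perithecia libraries, against 230 over the wild-type ones, which gives a level ratio of 0.0224 (exact 95% bounds 0.00458 and 0.0662, which cover counting error only), so the size of its difference is uncertain. It lay above by 3.18 for SMAC_08947 (edgeR adjusted p = 0.011) and by 1.93 for SMAC_12924 (edgeR adjusted p = 0.0175). Among genes lower in both tissues it lay above, that is, the decrease was deeper in perithecia, by 6.86 for SMAC_07669, 3.49 for SMAC_03185, 2.32 for SMAC_02704 and 1.60 for SMAC_07687 (edgeR adjusted p from 2.66e-04 to 0.0233).

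The mycelial effect lay below the perithecial one by -4.72 for SMAC_00508 (edgeR adjusted p = 0.0384) and by -2.15 for SMAC_08540 (edgeR adjusted p = 0.0122). In the run that starts with SMAC_00809 the difference was -2.87 for SMAC_00809, -1.28 for SMAC_00811 and -2.81 for SMAC_00812 (edgeR adjusted p from 0.00264 to 0.0334), with lower levels than the wild type in mycelium. Of these 3, SMAC_00809 was higher in ΔSMAC_03952 perithecia.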

How the results depend on the processing

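Against 1023 genes called (392 higher, 631 lower in ΔSMAC_03952 mycelium), the count was 242 (37 and 205) with only the 4 libraries compared, 1805 (780 and 1025) without the Δspt3 libraries, 1904 (785 and 1119) by DESeq2 and 164 (24 and 140) at an adjusted p under 0.01. Leaving out 1 library gave 92 to 668 genes, 6 to 242 higher and 86 to 432 lower, the lowest each time without wild-type replicate 1; the cause was not tested. Scaling, filters, thinning and the length correction kept the count within 1.5 times. The decrease of SMAC_03952 was called under each alternative, from -3.52 to -2.91.

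Genes lower in both tissues (192) numbered 65 at the stricter threshold and 55 to 153 without 1 library. Genes higher in both (45) numbered 96 without Δspt3, 106 by DESeq2, 7 at the stricter threshold, 81 with the replicate block and length offset, and 1 to 63 without 1 library. Genes lower in mycelium and higher in perithecia (25) numbered 41 without Δspt3, 71 by DESeq2, 2 at the stricter threshold, 55 with the replicate block, 68 with block and offset, and 1 to 71 without 1 library.

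The length trend (-0.35) turned to 0.0447 with length trends removed and 0.0494 with the replicate block as well, by construction, and to -0.44 to -0.13 without 1 library, being weakest without ΔSMAC_03952 replicate 2. Genes called in all 4 fits without 1 library numbered 150 with length trends removed, against 82, a comparison chosen after seeing the data. Replicate numbers were not taken to pair samples: replicate differences correlated at 0.01 between ΔSMAC_03952 and wild-type mycelium, and at -0.41 to 0.50 over all pairs of groups. With the replicate block 1360 genes were called (529 higher, 831 lower), and 1396 with the length offset too. Among the 4 mycelium libraries depth is least in ΔSMAC_03952 replicate 1, and few 2-fold changes were recovered in the data made with known changes.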
